A study of Mus musculus with 3 samples.

Results

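The genes described here are the ER (endoplasmic reticulum) chaperones and the transcription factor gene Xbp1, 10 of the 22658 gene models in the deposited tables. They were chosen by gene symbol: Hspa5, Hsp90b1, Calr, Pdia4, Dnajb9, Sdf2l1, Creld2, Manf, Herpud1 and Xbp1. Transcription was read by Bru-seq: cells are fed bromouridine, RNA that has taken it up is pulled down with an antibody, and the sequenced RNA therefore dates from the labelling period. The cells were NB490, a mouse pancreatic cancer line selected with puromycin for an inducible PDX1 shRNA, and all were labelled with 2 mM bromouridine for 30 min. One culture was uninduced, another had doxycycline for 48 h, and the last had grown out during more than 3 weeks of doxycycline, so each condition had 1 library and no replicate. A doxycycline control lacking the shRNA was not analysed here, so effects of the shRNA and of the drug cannot be told apart. No p-value is given, and each difference below is one between single libraries.

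Proteins that enter the secretory pathway fold in the ER with the help of chaperones such as BiP, the product of Hspa5. When unfolded proteins collect there, the unfolded protein response switches on chaperone genes through ATF6, through XBP1, whose mRNA is spliced by the sensor IRE1 (Ern1), and through ATF4, made when the sensor PERK (Eif2ak3) slows translation. Secretory cells of the pancreas are known for a large ER and for their need of XBP1.

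The promoters of several of these genes hold the letters of known stress elements, and 5 are shown because they carry them in the 250 bases upstream of the gene start. Sequences are from RefSeq on build GRCm38.p6, on the gene's strand, and were found for 9 of the 10 genes, Manf being the one not matched. The windows are chr2:34771840-34772089 (plus strand), chr10:86705445-86705694 (minus), chr8:84846932-84847181 (minus), chr15:88819396-88819645 (plus) and chr8:94386179-94386428 (plus). Capitals mark the outer boxes of the ER stress element, and in Herpud1 the whole of each of its longer elements.
Hspa5: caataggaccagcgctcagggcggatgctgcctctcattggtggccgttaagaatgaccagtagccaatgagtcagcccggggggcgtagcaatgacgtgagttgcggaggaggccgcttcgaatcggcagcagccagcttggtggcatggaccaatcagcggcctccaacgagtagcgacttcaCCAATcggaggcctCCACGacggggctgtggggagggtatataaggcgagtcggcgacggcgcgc
Hsp90b1: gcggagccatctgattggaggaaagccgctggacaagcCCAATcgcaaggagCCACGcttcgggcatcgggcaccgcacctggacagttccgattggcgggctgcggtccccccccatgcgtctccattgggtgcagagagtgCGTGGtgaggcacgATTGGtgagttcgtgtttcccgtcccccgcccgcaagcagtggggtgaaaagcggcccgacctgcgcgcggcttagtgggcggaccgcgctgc
Calr: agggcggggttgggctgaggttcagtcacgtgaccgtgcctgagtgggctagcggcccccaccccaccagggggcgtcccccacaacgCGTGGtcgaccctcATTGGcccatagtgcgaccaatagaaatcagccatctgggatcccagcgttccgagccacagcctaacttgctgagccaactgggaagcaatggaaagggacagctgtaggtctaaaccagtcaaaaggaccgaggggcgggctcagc
Creld2: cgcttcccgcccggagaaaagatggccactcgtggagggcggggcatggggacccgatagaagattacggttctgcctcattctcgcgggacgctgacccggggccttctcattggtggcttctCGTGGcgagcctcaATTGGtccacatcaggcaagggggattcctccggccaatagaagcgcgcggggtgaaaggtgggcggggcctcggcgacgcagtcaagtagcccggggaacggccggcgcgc
Herpud1: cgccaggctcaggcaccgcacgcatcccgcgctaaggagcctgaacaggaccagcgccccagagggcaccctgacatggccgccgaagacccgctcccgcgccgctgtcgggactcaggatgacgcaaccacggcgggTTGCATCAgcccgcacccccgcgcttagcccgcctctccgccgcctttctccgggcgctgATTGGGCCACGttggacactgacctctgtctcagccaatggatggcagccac

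The ER stress element, CCAAT and CCACG with 9 bases between them, searched on either strand, is known to be bound by NF-Y at its CCAAT end and by ATF6 at its CCACG end. It was found in 4 of the 9 promoters, against 37 of 32851 windows of the same length (0.113%) over all RefSeq promoters. Hsp90b1 held it once on each strand, starting 212 and 107 bases upstream. Hspa5 held it 65 bases upstream, Calr 162 and Creld2 126, in the last pair on the strand opposite the gene. Herpud1 held no such match but held the ER stress element II, ATTGG and CCACG with any 1 base between them, 52 bases upstream, which occurred in 10 of the 32851 promoters (0.0304%). Herpud1 was also the only one of the 9 with TTGCATCA, a C/EBP-ATF composite element, known as a kind of site bound by ATF4, at 112 bases upstream. That word was in 260 of all promoters (0.791%). The 8 letters TGACGTGG, the core of the UPR element, were in none of the 9 windows and in 185 of all promoters (0.563%). Part of the ER stress element, the 5 letters CCAAT, was in 8 of the 9 windows and in 33.8% of all promoters, and CCACG in 7 of the 9 and in 28.3%; both also lie inside the longer elements. Xbp1 held none of the 6 words searched, and Pdia4, Dnajb9 and Sdf2l1 held only the short ones. These are letter matches and show no binding. Counts over all promoters include the genes described here. The words were searched because they were already known as stress elements or parts of them, so the counts are a description and not a test.

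**Figure D1:**
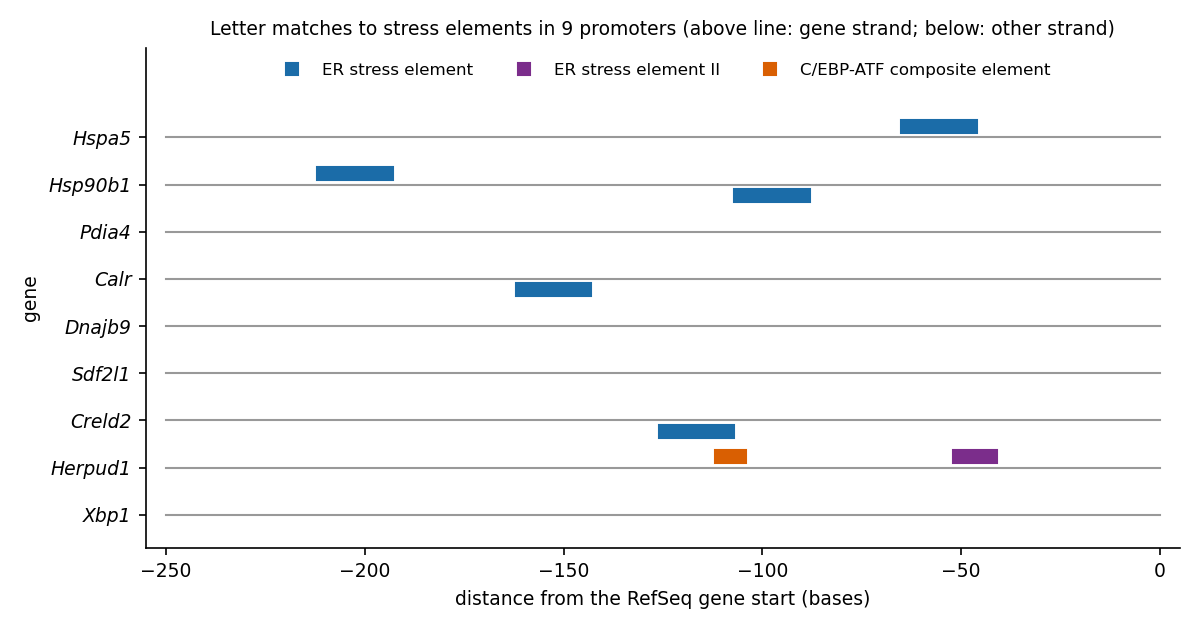
The horizontal axis is the distance from the RefSeq gene start in bases and each line is 1 promoter of 250 bases. Coloured blocks are letter matches, above the line on the gene's strand and below it on the other: 4 genes hold the ER stress element, and Herpud1 holds the other 2 elements.

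Library totals were 51006774 reads for uninduced cells, 48418864 for 48 h and 41632296 for grown-out cells, of which the 10 genes held 13428, 12639 and 10799 reads. Levels are RPKM, reads scaled by gene model length and library total, over exons and introns together. For a few models, such as Ern1 below, the length used is only part of the span. Intervals are 95% and cover counting error only. Pdx1, the shRNA target, had 1.59, 1.05 and 1.41 RPKM of nascent RNA in the same order, which does not measure its mRNA or protein. Of 8 epithelial markers 6 were measured, with summed levels over all 8 of 57.4, 49.2 and 54.4 RPKM. At 48 h 5 of the 6 were lower beyond counting error and 1 was higher, against 30.0% and 30.1% of all measured genes. Of the lower ones, Krt19 had 13.6 RPKM uninduced and 8.01 at 48 h, and Muc1 2.55 and 1.38. The others were lower by less: Krt7 had 11.2 and 10.4, Krt8 10.8 and 9.61, and Cdh1 4.81 and 4.63. The higher one, Krt18, had 14.2 and 15.1. Of 9 immune markers 8 were matched, 2 were measured and 2 were listed at 0 in every library, with summed levels of 2.42, 1.37 and 1.37 RPKM. The 2 measured were Cd14, with 1.42, 0.451 and 0.469 RPKM, and Cd68, with 0.994, 0.916 and 0.901 RPKM. The lower sum was thus mostly Cd14. The part of these shifts in the results below was not tested. Of 12 markers of acinar cells, which have a very large ER, 0 reached the minimum and 7 were listed at 0 in every library; their summed reads were 75.0, 69 and 61. Of 10 markers of plasma and B cells 9 were matched and only Sdc1, which epithelial cells also make, was measured.

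The chaperone genes Hspa5, Hsp90b1 and Calr were the most transcribed of the 10 in every library, and their levels differed little between libraries. Hspa5 (chromosome 2, 34627610 to 34632049, plus strand; build of the deposited coordinates not given in the sources used here) encodes BiP, the main ER Hsp70 chaperone. It had 10.8 RPKM in the uninduced library (10.4 to 11.3), 11.7 at 48 h (11.3 to 12.2) and 9.85 once grown out (9.40 to 10.3). The uninduced and 48 h intervals overlapped slightly, and grown-out cells were lowest. In the uninduced library this level exceeded that of 96.3% of the 7915 genes measured, meaning those with a mean of at least 0.5 RPKM and a model of at least 300 bp. Hsp90b1 (chromosome 10, 86153586 to 86168189, minus strand), the ER Hsp90, had 5.70, 6.16 and 6.004 RPKM. Calr (chromosome 8, 87365987 to 87370830, minus strand), the lectin chaperone calreticulin, had 5.62, 6.04 and 6.08 RPKM. Hsp90b1 and Calr did not differ from each other beyond counting error in any library, and both had their lowest value in uninduced cells. For Calr the difference between uninduced and 48 h cells was within counting error. Pdia4 (chromosome 6, 47746140 to 47763511, minus strand), a protein disulfide isomerase, had 1.78, 1.92 and 2.12 RPKM. It was highest in grown-out cells, and its level lay near the median of measured genes, which was 1.64, 1.60 and 1.64 RPKM.

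Of the co-chaperones and secreted ER factors, Dnajb9 and Manf had levels near that of Pdia4, and Creld2 and Sdf2l1 were the lowest of the 10. Dnajb9 (chromosome 12, 45306884 to 45311055, minus strand), a J-domain partner of BiP, had 2.19 RPKM uninduced (2.00 to 2.40), 1.87 at 48 h (1.68 to 2.06) and 2.08 once grown out (1.87 to 2.30). Manf (chromosome 9, 106789746 to 106794269, minus strand), a small ER protein that can be secreted, had 2.23, 2.32 and 1.86 RPKM. Manf was thus lowest in grown-out cells. Dnajb9 had its lowest value at 48 h, but its 48 h and grown-out intervals overlapped. Creld2 (chromosome 15, 88650076 to 88657111, plus strand), a secreted ER stress protein with EGF-like repeats, had 0.339, 0.387 and 0.328 RPKM on 122, 132 and 96 reads. Sdf2l1 (chromosome 16, 17130231 to 17132476, minus strand), a partner of BiP complexes, had 0.218, 0.294 and 0.118 RPKM on 25, 32 and 11 reads. Creld2 and Sdf2l1 lay under the expression minimum in every library, so 8 of the 10 genes were measured. The lowest measured gene by mean level was Pdia4 at 1.94 RPKM, and the highest below the minimum Creld2 at 0.352.

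The transcription factor gene Xbp1 was of middle level, and Herpud1 was above it in every library. Herpud1 exceeded 86.3% of measured genes uninduced, 71.0% at 48 h and 80.7% once grown out. Xbp1 (chromosome 11, 5420970 to 5425875, plus strand) had 2.28 RPKM uninduced (2.09 to 2.47), 2.28 at 48 h (2.09 to 2.48) and 1.96 once grown out (1.77 to 2.15). Reads were counted over the whole gene, so the splicing of Xbp1 mRNA by IRE1 cannot be seen. Herpud1 (chromosome 8, 96910400 to 96919258, plus strand), a membrane protein of ER-associated degradation, had 4.59 RPKM uninduced (4.39 to 4.79), 2.68 at 48 h (2.52 to 2.84) and 3.68 once grown out (3.49 to 3.88). The 3 Herpud1 intervals did not overlap, with 48 h lowest and uninduced highest.

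**Figure D2:**
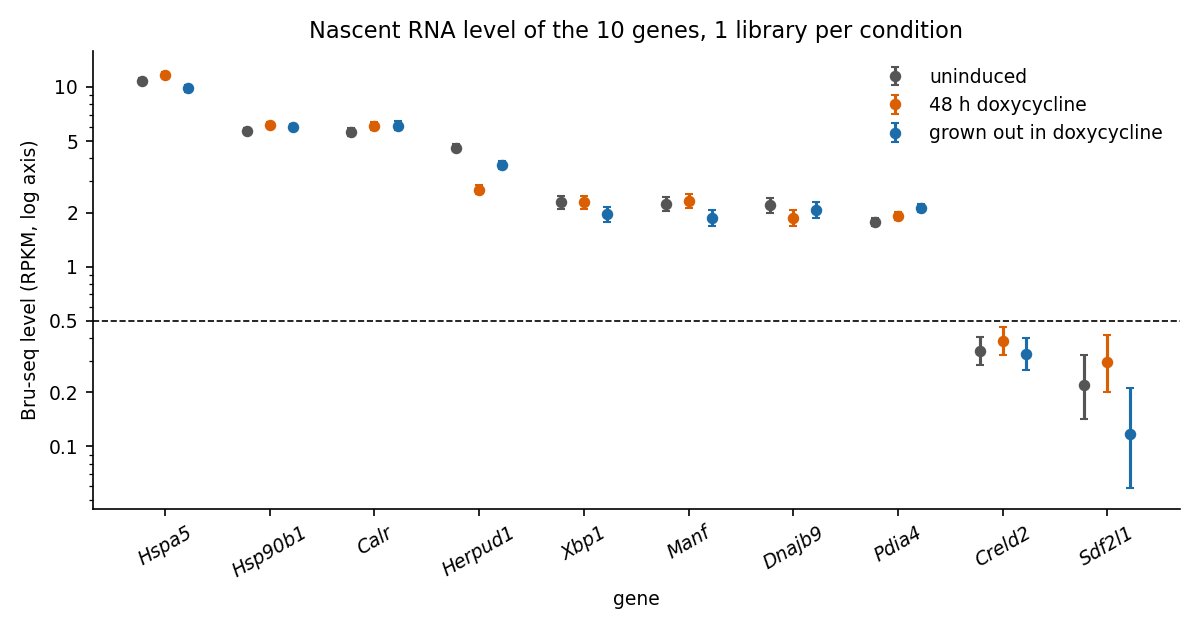
Points are the level of each gene in RPKM on a log axis, 1 library per condition, and bars are exact Poisson 95% intervals of the count; the dashed line is the minimum of 0.5 RPKM. Hspa5 is highest throughout, Creld2 and Sdf2l1 lie under the line, and the 3 Herpud1 points are the most clearly separated.

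The order of levels per length was similar in the 3 libraries. In uninduced cells it ran Hspa5, Hsp90b1, Calr, Herpud1, Xbp1, Manf, Dnajb9, Pdia4, Creld2 and Sdf2l1. Hspa5 was 1.90-fold above Hsp90b1 (1.81 to 2.00) there, and Calr 1.23-fold above Herpud1 (1.14 to 1.31). Hsp90b1 and Calr, Xbp1 and Manf, and Manf and Dnajb9 were neighbours that did not differ beyond counting error. At 48 h the gap between Calr and Herpud1 was 2.26-fold (2.09 to 2.44), and Herpud1 was 1.15-fold above the next gene, Manf (1.04 to 1.28). In grown-out cells Hspa5 was 1.62-fold above Calr (1.51 to 1.74), and Pdia4, Dnajb9, Xbp1 and Manf followed Herpud1 with no difference between neighbours beyond counting error. Set against Hspa5 within each library, which removes library scaling, Herpud1 had 0.423 of its level uninduced, 0.228 at 48 h and 0.374 in grown-out cells. Hsp90b1 had 0.526, 0.526 and 0.610, and Calr 0.518, 0.515 and 0.618. Relative to Hspa5, Herpud1 was thus lowest at 48 h, whereas Hsp90b1 and Calr were highest in grown-out cells.

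The first comparison asked what differed 48 h after the shRNA was switched on. Most of these genes differed little, and Herpud1 was lower. Herpud1 was 1.71-fold lower at 48 h (1.59 to 1.84), and 1.74% of the measured genes had a lower ratio. Hspa5 was 1.08-fold higher (1.02 to 1.14), Hsp90b1 1.08-fold (1.04 to 1.13) and Pdia4 1.08-fold (1.01 to 1.16). Calr, at 1.07-fold higher (0.997 to 1.16), had an interval that included no change. These chaperones were all close to their uninduced level, and the middle 90% of measured genes ran from 1.42-fold lower to 1.23-fold higher. Dnajb9 was 1.18-fold lower (1.02 to 1.35). Xbp1 had a ratio of 1.00 (interval of the fold lower 0.888 to 1.13), and Manf was 1.04-fold higher (0.921 to 1.18). For Xbp1 and Manf a difference of more than about 1.2-fold lies outside the counting interval. Creld2 was 1.14-fold higher (0.884 to 1.47) and Sdf2l1 1.35-fold higher (0.774 to 2.37), too few reads to give a direction.

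Differences were counted past a fold limit, a log2 ratio of RPKM of at least 0.32 either way with an interval that left out no change. Of the 8 measured genes 1 was past this limit lower at 48 h, Herpud1, and 0 were higher, against 10.6% lower and 3.51% higher among all measured genes. Beyond counting error at any size, 3 were higher and 2 lower, against 30.1% and 30.0% of all. The share of the group that differed is thus near the background. The median log2 ratio, of RPKM plus 0.05, was 0.081 for the 8 genes and 0.0029 for all measured genes. No gene of the 10 was past 2-fold.

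**Figure D3:**
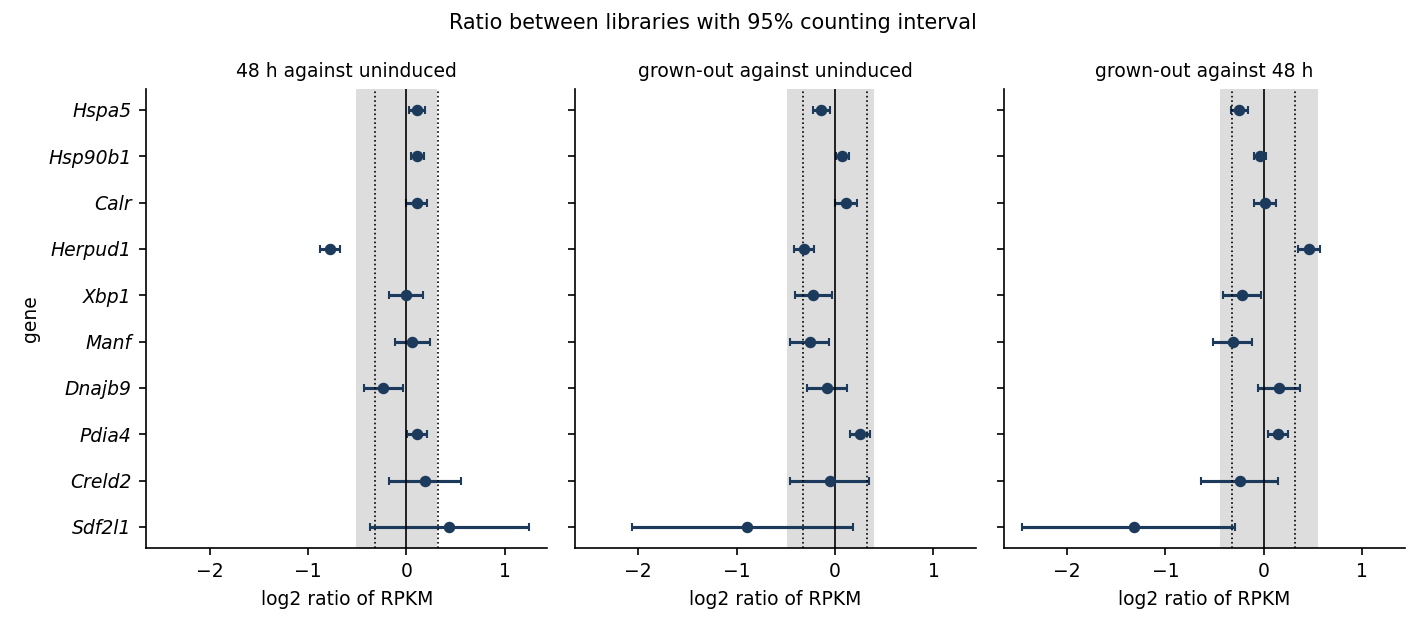
Each panel gives the log2 ratio of RPKM of 1 comparison, with points for genes and bars for exact conditional binomial 95% intervals of the counts. Dotted lines are the fold limit and the grey band holds the middle 90% of measured genes. Herpud1 lies left of the band at 48 h, and Sdf2l1 has the widest bars.

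Cells that had grown out under long doxycycline were next set against the same uninduced library. The group divided by small amounts: Pdia4, Calr and Hsp90b1 were higher, and Herpud1, Manf, Xbp1 and Hspa5 were lower. Pdia4 was 1.19-fold higher (1.11 to 1.28), Calr 1.08-fold (1.001 to 1.17) and Hsp90b1 1.05-fold (1.01 to 1.10). Herpud1 was 1.245-fold lower (1.16 to 1.33), just under the fold limit, and past it under each of the 3 other scalings tried. Manf was 1.19-fold lower (1.04 to 1.37), Xbp1 1.16-fold (1.02 to 1.33) and Hspa5 1.10-fold (1.04 to 1.17). So the chaperones BiP and GRP94, encoded by Hspa5 and Hsp90b1, lay on opposite sides of the uninduced level, each by 1.10-fold or less. Dnajb9, at 1.06-fold lower (0.918 to 1.21), and Creld2, at 1.04-fold lower (0.787 to 1.37), had intervals that included no change. Sdf2l1 was 1.86-fold lower (0.880 to 4.18) on 11 against 25 reads, which does not settle a direction.

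Of the 8 measured genes 0 were past the fold limit either way in grown-out cells, against 7.54% higher and 9.93% lower among all measured genes. Beyond counting error 3 were higher and 4 lower, against 33.6% and 29.5%. Their median log2 ratio was -0.11, against 0.0082 for all measured genes.

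Grown-out cells were last set against the 48 h library. Both libraries already served above, so a gene low at 48 h comes out high here. Herpud1 was 1.38-fold higher in grown-out cells (1.27 to 1.49), and Pdia4 1.10-fold higher (1.03 to 1.18). Hspa5 was 1.19-fold lower (1.12 to 1.26), Manf 1.246-fold lower (1.09 to 1.43) and Xbp1 1.16-fold lower (1.02 to 1.33). Herpud1 in grown-out cells therefore lay between its 48 h and uninduced levels, whereas Hspa5, Manf and Xbp1 were lowest in grown-out cells. Hsp90b1 was 1.03-fold lower (0.982 to 1.07), Calr 1.01-fold higher (0.933 to 1.09), Dnajb9 1.11-fold higher (0.961 to 1.29) and Creld2 1.18-fold lower (0.902 to 1.55), all with no change inside the interval. Sdf2l1, below the minimum, was 2.50-fold lower (1.23 to 5.50) on 11 against 32 reads, and was the only gene of the 10 past 2-fold in any comparison. Of the 8 measured genes 1 was past the fold limit higher, against 13.4% of all, and 0 lower, against 9.29%. Beyond counting error 2 were higher and 3 lower, against 35.6% and 32.0%. The median log2 ratio was -0.013, against 0.0090 for all measured genes.

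Sensors and transcription factors of the response were read beside these genes. Ern1, which encodes IRE1, had 1.41, 1.21 and 1.08 RPKM, and was 1.31-fold lower in grown-out than in uninduced cells (1.08 to 1.59). It was scaled by 3976 bp of its 90177 bp span, whereas the lengths for Eif2ak3 and Atf6 equalled their spans. The level of Ern1 is therefore not directly comparable with theirs. Eif2ak3, which encodes PERK, had 1.28, 1.03 and 0.839 RPKM, and was 1.24-fold lower at 48 h (1.18 to 1.30) and 1.52-fold lower once grown out (1.44 to 1.60). Atf6 had 2.40, 2.54 and 2.48 RPKM. Of the sensors, Eif2ak3 was thus lower in both doxycycline libraries, and Atf6 was within 1.06-fold of the uninduced level in both. Atf4 had 9.70 RPKM uninduced (9.15 to 10.3), 7.53 at 48 h (7.03 to 8.04) and 9.92 once grown out (9.31 to 10.6). Ddit3, which encodes CHOP, a factor downstream of ATF4, had 1.07, 0.736 and 1.18 RPKM. Like Herpud1, Atf4 and Ddit3 were lowest at 48 h, by 1.29-fold (1.18 to 1.41) and 1.46-fold (1.21 to 1.75) against uninduced cells, but for both the grown-out and uninduced intervals overlapped. Of the 14 measured of 20 sensors and factors, 0 were past the fold limit higher and 2 lower at 48 h, namely Ddit3 and Atf4, and 0 and 2 in grown-out cells, namely Eif2ak3 and Ern1. These counts past the limit are near the 10.6% and 9.93% of all measured genes that were lower. Beyond counting error 4 of the 14 were higher and 8 lower at 48 h, against 30.1% and 30.0% of all measured genes. In grown-out cells 3 were higher and 6 lower, against 33.6% and 29.5%. The median log2 ratios of the 14 were -0.17 and -0.0011, against 0.0029 and 0.0082 for all measured genes.

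**Figure D4:**
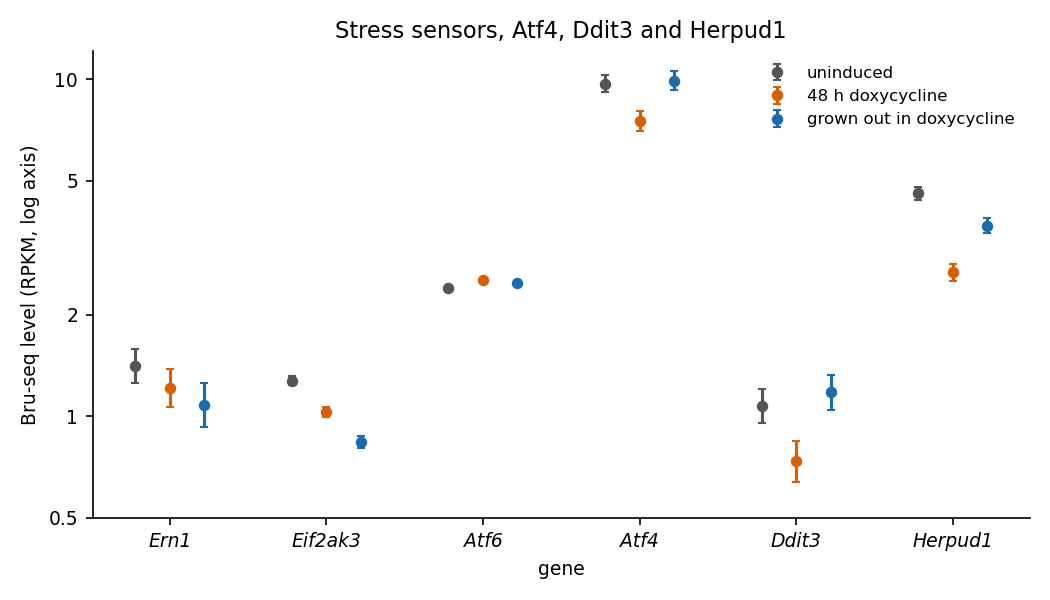
Points are levels in RPKM on a log axis with exact Poisson 95% intervals, 1 library per condition. Eif2ak3 is lower in both doxycycline libraries, and Atf4, Ddit3 and Herpud1 are each lowest at 48 h.

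Other genes of ER folding mostly stayed inside the fold limit. Of 17 measured further chaperones and co-chaperones, 2 were past the fold limit higher and 3 lower at 48 h, against 3.51% and 10.6% of all measured genes; the counts of the lists that follow stand against the same shares, and those for grown-out cells against 7.54% and 9.93%. Dnajc3, a J-domain protein, was 1.38-fold higher (1.29 to 1.47), Hyou1, the large ER Hsp70, 1.28-fold higher (1.12 to 1.46) and Cnpy4 1.37-fold lower (1.12 to 1.68). In grown-out cells 1 was higher, Hyou1 at 1.31-fold (1.14 to 1.496), and 2 lower, Creld1 at 1.63-fold (1.35 to 1.97) and Fkbp7 at 1.55-fold (1.34 to 1.81). So Hyou1, a partner of BiP, was past the fold limit higher in both doxycycline libraries. Hspa5 was 1.08-fold higher at 48 h and 1.10-fold lower in grown-out cells. Of 14 measured disulfide bond genes, 0 were past the fold limit at 48 h, the largest ratio being Erp44 at 1.247-fold higher (1.21 to 1.29). In grown-out cells 1 was higher, Txndc11 at 1.405-fold (1.34 to 1.47), and 2 lower, Prdx4 at 1.32-fold (1.24 to 1.397) and Tmx2 at 1.29-fold (1.13 to 1.46).

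The ER-associated degradation genes, the pathway Herpud1 serves, were close to their uninduced level. Of 24 measured, Herpud1 left out, 0 were past the fold limit higher and 1 lower at 48 h, Ngly1, the peptide N-glycanase, at 1.30-fold (1.23 to 1.38), with a median log2 ratio of 0.014. In grown-out cells 0 were higher and 1 lower, the lectin gene Erlec1 at 1.28-fold (1.21 to 1.35), with a median of 0.070. Herpud1 at 48 h thus lay farther from no change than any of these 24.

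Genes of entry into and exit from the ER had medians slightly above 0 at 48 h. These were 0.12 for 25 translocation genes, 0.11 for 29 N-glycosylation genes and 0.077 for 27 COPII and KDEL receptor genes, each with 1 gene past the fold limit higher, and with 0, 1 and 0 lower. The higher ones were Srp14, of the signal recognition particle, at 1.46-fold (1.24 to 1.73), Uggt2, a glucosyltransferase of folding control, at 1.38-fold (1.33 to 1.44), and the cargo receptor Tmed9 at 1.3997-fold (1.22 to 1.61). Beyond counting error 13, 12 and 14 genes of the 3 lists were higher at 48 h and 3, 2 and 2 lower, against 30.1% and 30.0% of all measured genes. In grown-out cells the 3 medians were -0.0081, 0.048 and -0.064. Past the fold limit there, 1, 3 and 0 genes were higher and 2, 1 and 1 lower. Beyond counting error there, 8, 9 and 3 were higher and 7, 5 and 12 lower, against 33.6% and 29.5%. Lman2, a cargo lectin, was 1.59-fold higher there (1.47 to 1.71) and the coatomer gene Copa 1.26-fold lower (1.21 to 1.31).

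Stress genes outside the ER were read as 2 further lists. Of 23 measured Atf4 and amino acid stress genes, 0 were past the fold limit higher and 8 lower at 48 h, against 3.51% and 10.6% of all measured genes, and 5 and 5 in grown-out cells, against 7.54% and 9.93%. Beyond counting error 6 were higher and 12 lower at 48 h, against 30.1% and 30.0%, and 11 and 7 in grown-out cells, against 33.6% and 29.5%. At 48 h Atf3 was 2.32-fold lower (2.00 to 2.70) and Ddit4 2.31-fold lower (1.74 to 3.09). Both were as low in grown-out cells, each by 2.32-fold against uninduced cells (1.98 to 2.72 and 1.71 to 3.16). Of 24 measured cytosolic and mitochondrial heat shock genes, 1 was higher and 2 lower at 48 h, and 4 higher and 1 lower in grown-out cells, where their median was 0.19. Beyond counting error 19 of the 24 were higher and 3 lower in grown-out cells, against 33.6% and 29.5% of all measured genes. The largest ratio there went the other way: Dnajb1 was 1.53-fold lower (1.255 to 1.87), and 1.38-fold lower at 48 h (1.15 to 1.66). Hsp90aa1, the inducible cytosolic Hsp90, had 16.9, 21.0 and 25.1 RPKM and was 1.48-fold higher in grown-out cells (1.43 to 1.54), beside 1.05-fold for its ER counterpart Hsp90b1. The difference between these lists was not tested.

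**Figure D5:**
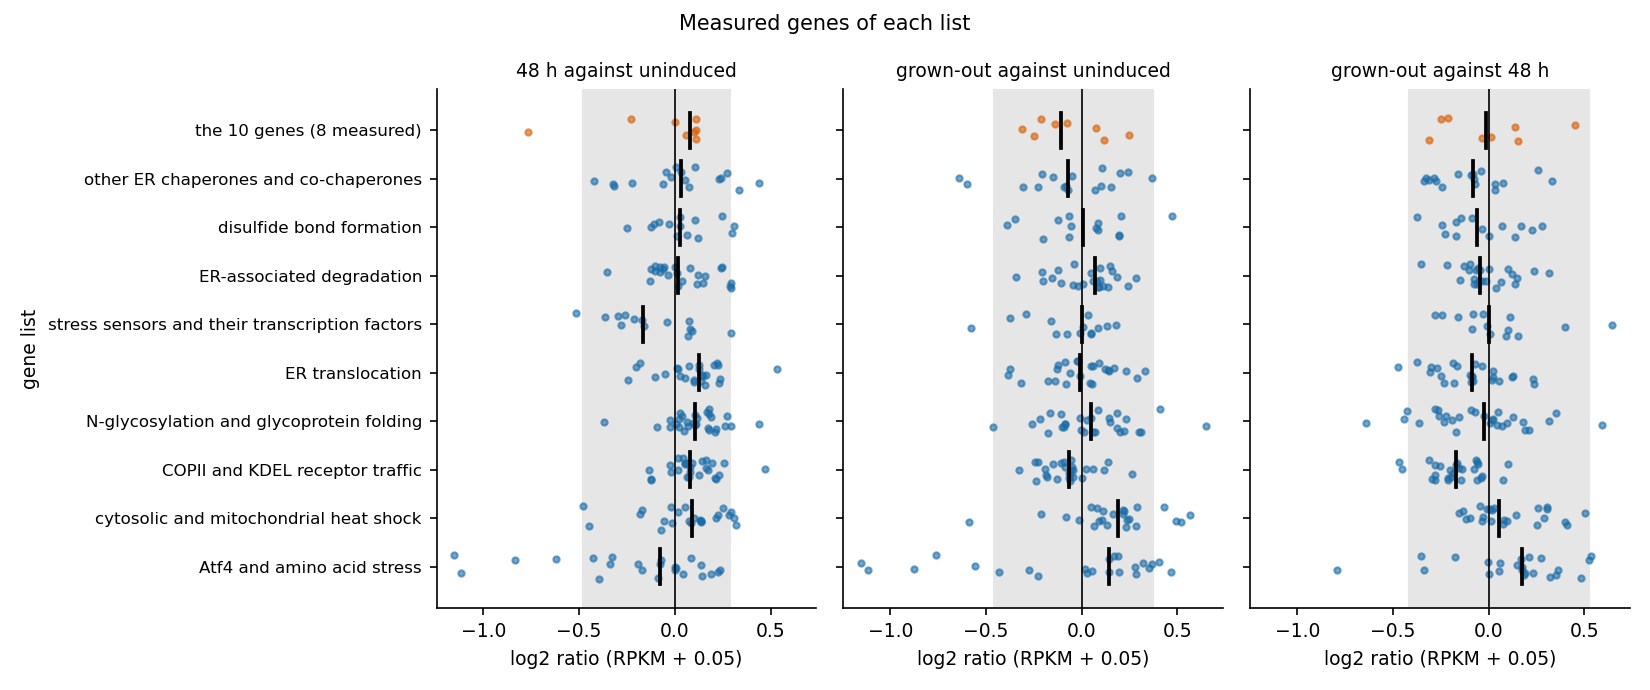
Each point is a measured gene, placed by its log2 ratio of RPKM plus 0.05 in 1 comparison, with black bars for list medians and the grey band for the middle 90% of all measured genes. The 8 measured genes described here are in orange, and Herpud1 is the one outside the band at 48 h.

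Few other models lay on top of these genes. Within 20 kb of the 10 models lay 23 other models, 12 of them measured, and Herpud1 had 0. Only Pdia4 was overlapped on its strand, by Mir704 over 63 bp, and 0 were overlapped on the other strand. Creld2 had Alg12, a mannosyltransferase gene of N-glycosylation, 327 bp upstream on the opposite strand, at 0.543, 0.591 and 0.681 RPKM. Creld2, at 0.339, 0.387 and 0.328 RPKM, thus had a lower level than Alg12 in each library. Sdf2l1 had whole-number counts in all libraries, within 0.01 of a read, whereas the 8 measured genes had counts that were not whole in any library. Why counts are not whole is not given in the sources used here, so a fractional count does not show that reads were shared between genes. How reads from near-identical copies were counted is not given either, so genes with such copies could have uncertain values.

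By distance between pairs of log2 ratios (48 h and grown-out, each against uninduced), the genes nearest to Hspa5 were Snrnp27, Vta1, Ywhab, Psmd4 and Cul4b, at distances of 0.0083 to 0.015. These distances are smaller than the counting interval of Hspa5 itself, so the order of the nearest genes is not resolved. They were taken from 3265 genes with a mean of at least 2 RPKM, of which 267 (8.18%) lay within 0.1. Of the other 7 measured genes of the group 0 lay within 0.1, which is near that share: Manf was nearest at 0.12, Xbp1 at 0.14 and Hsp90b1 at 0.21, and Herpud1 was farthest at 0.89.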

How the data were processed

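The deposited tables give, per the file headers, an estimated count of reads for each whole gene model, introns and exons together, and the RPKM the authors derived from it. A further deposited column is a signal of reads per base and was not used for the values given here. Library totals were worked back from the counts, model lengths and RPKM. Bowtie 0.12.8, TopHat 1.4.1, bedtools 2.16.2 and CASAVA 1.8.2 are named in the submitters' processing notes without settings, as is the human build hg19, which the mouse gene symbols contradict; coordinates are as deposited, from base 1. Because introns count, how far polymerases had travelled can enter a value.

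Of 22658 models, 138 with a repeated symbol or a span over 3 Mb were left out. Folds compare RPKM values, and their exact binomial intervals, conditional on a gene's summed reads, use counts rounded to whole reads (scipy 1.17.1); repeat reads of 1 molecule could make it too narrow. Log2 ratios used RPKM plus 0.05. edgeR 4.0.16 and DESeq2 1.42.0 supplied only alternative scalings. The genes and lists were chosen with earlier results of these data known, and the other genes named are those with the largest ratios in each list, up to 3 per comparison, the sensors, and the 5 nearest to Hspa5. Vimp, Rtcb, Mzb1 and Adgre1 of the lists were not matched by symbol. Protein sequences were not used here.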

Additional observations from a re-analysis of the deposited data

How the results depend on the processing

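The 231 recomputed log2 ratios of the 10 genes all stayed inside their main counting interval. The settings were pseudocounts of 0.5 and 0.01, a mean RPKM of at least 2, no minimum, 3 other scalings and keeping the longest model of a repeated symbol. A gene's own ratio does not use the minimum, and 0 of the 10 symbols were repeated, so those settings could not move it. The edgeR and DESeq2 factors ran from 0.997 to 1.005 and could move it only slightly. The medians of the group moved by less than the counting error as well. Counts past the fold limit moved because values lay at the line. With edgeR's TMM, with DESeq2 size factors and with the median ratio set to no change, 1 gene was lower in grown-out cells against uninduced (Herpud1) and 1 against 48 h (Manf), where the main counts were 0; a limit of 1.2-fold, chosen after seeing the data, also gave 1 and 1. With no minimum RPKM, 1 was lower in grown-out cells against 48 h (Sdf2l1). With no minimum fold, 3 were higher and 2 lower at 48 h, 3 and 4 in grown-out cells, and 2 and 3 between the last. With 2-fold, 0 were lower at 48 h and 0 higher in grown-out cells against 48 h. Of 756 recomputed list values 130 moved, mostly counts under another limit. No paired analysis was possible because each condition has 1 library. Reads limit Sdf2l1 and Creld2 most.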
